A study of Drosophila melanogaster with 6 samples.

Results

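The genes described here are 8 Drosophila melanogaster genes of the ecdysteroid kinase-like family, also known by its protein domain DUF227: CG9259 on chromosome arm 2L, and CG10513, CG10514, CG10550, CG10559, CG10553, CG10560 and CG10562 on arm 3R. They are 8 of the 11982 genes that a probe set with a single gene name measured, and each of the 8 was read by 1 such probe set. CG9259 and CG10553 were picked because their signals differed between the groups of arrays compared here, and the others because they belong to the same family and lie around CG10553. The values of these genes between the groups are therefore given as a description, without p-values.

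RNA of whole larvae of instar 1, with sexes and tissues mixed, was measured on 6 Affymetrix expression arrays. The mutant group, which the series title ties to the allele D119 of Pof, has 3 arrays, and the wild type group has 3 arrays. Each array stands for a biological replicate of 200 larvae. The protein made from Pof coats the small chromosome 4. What the D119 allele changes, the wild type stock and the exact age of the larvae are not stated in the labels. The comparison sets transcript levels under the mutant label against those of wild type. An effect of the Pof allele cannot be told apart from other differences between the groups, such as stock background or age.

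Ecdysteroids are the moulting hormones of insects. Enzymes that add a phosphate to ecdysteroids have been described in other insects, such as the silkworm, where the phosphate form is an inactive store that a phosphatase can release again. The fly family carries the name of that activity, but for most of its genes no substrate is known. Family members have been linked to hormone metabolism and to detoxification of foreign compounds, and many stand next to each other in the genome. The products of all 8 genes are predicted kinases of small molecules by their domain, and no more specific role is assigned to any of them here.

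Pof itself gave a higher signal under the mutant label. Its log2 values were 8.35, 8.44 and 8.43 on the mutant-labelled arrays and 6.74, 6.83 and 6.82 on the wild type arrays. The difference was 1.61 (SE 0.069, limma adjusted p = 9.47e-05). Whether this probe set lies inside the part of Pof that the allele changes is unknown, so it cannot check the labels, and every direction below rests on them. All values are log2 signals per probe set made by the authors with RMA, without detection calls, and array medians lay between 6.46 and 6.56. Signals of different probe sets are not compared as amounts of RNA.

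Replicate arrays were not equally alike. Over all probe sets wild type replicates 2 and 3 correlated at r = 0.998, whereas wild type replicate 1 reached 0.980 and 0.979 with them. Replicates 2 and 3 shared 0 identical values and were kept as separate samples. On mutant-labelled replicate 2, the 3' minus 5' signal of the actin, GAPDH and eIF-4a controls averaged 2.03, against 1.20 to 1.48 on the other 5 arrays. Markers of cuticle and epidermis had a median of 9.88 on wild type replicate 1, against 8.81 and 9.09 on the other wild type arrays. Muscle markers were high on all arrays (list medians 11.8 to 11.9), and markers of late salivary glands and of adults were low (list medians 5.59 to 5.93 on the mutant-labelled arrays and 5.68 to 6.0 on the wild type arrays).

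CG9259 showed the widest separation of the 8 genes. Its log2 signals were 7.56, 7.67 and 7.56 on the mutant-labelled arrays and 4.74, 4.95 and 4.74 on the wild type arrays. The groups did not overlap, and the lowest mutant-labelled value lay 2.60 above the highest wild type value. The means were 7.60 ± 0.066 on the mutant-labelled arrays and 4.81 ± 0.12 on the wild type arrays (SD, n = 3 each), a difference of 2.79 (SE 0.086) or 6.91-fold. On the wild type arrays this probe set ranked between percentiles 14.9 and 20.9 of its own array, below the lower quartile, and on the mutant-labelled arrays between 63.6 and 65.1. Because its wild type signal was that dim and whether it lay above background is unknown, the size of the fold is uncertain.

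CG10553 was bright in both groups. Its signals were 9.46, 9.52 and 9.39 on the mutant-labelled arrays and 7.80, 8.02 and 7.93 on the wild type arrays. These means, 9.46 ± 0.065 under the mutant label and 7.92 ± 0.11 in wild type (SD, n = 3 each), differ by 1.54 (SE 0.082), a 2.90-fold higher signal. The groups were separated by 1.36, far more than the spread within either group. The probe set stood between percentiles 86.0 and 87.4 on the mutant-labelled arrays and between 67.1 and 69.5 on the wild type arrays, so that the wild type level of this gene, unlike that of CG9259, was above the median of every array.

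**Figure D1:**
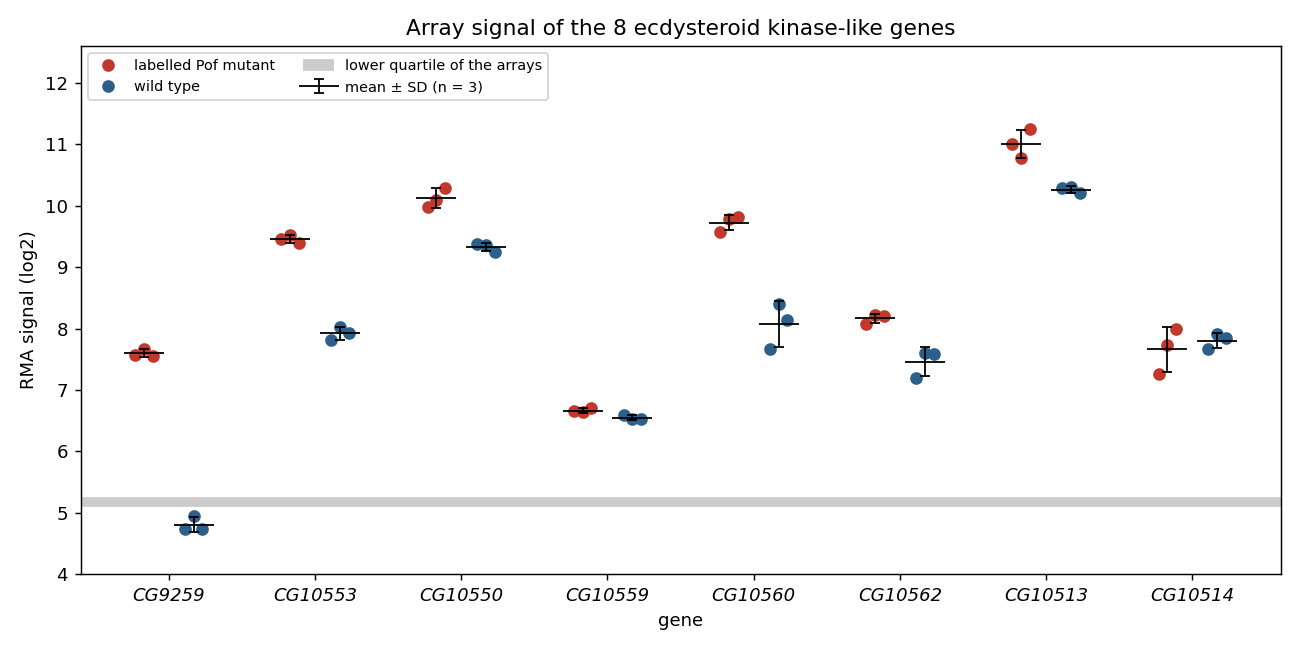
Log2 array signal (vertical axis) of the 8 genes (horizontal axis), with 1 point per array, mutant-labelled arrays in red at the left of each gene and wild type arrays in blue at the right; bars are the mean ± SD of 3 arrays and the grey band is the range of the arrays' lower quartiles. CG9259 lies below the band on all 3 wild type arrays and near 7.6 on the mutant-labelled arrays, and the 2 groups overlap for CG10514 alone.

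CG10560, the next gene after CG10553 on 3R, differed by a similar amount with a wider wild type spread. Its signals were 9.58, 9.79 and 9.81 on the mutant-labelled arrays and 7.67, 8.40 and 8.14 on the wild type arrays. The means were 9.73 ± 0.13 on the mutant-labelled arrays and 8.07 ± 0.37 on the wild type arrays (SD, n = 3 each), a difference of 1.65 (SE 0.18) or 3.15-fold. Wild type replicate 1 was the lowest array, and without it the difference was 1.45. Within each array, CG10560 minus CG10553 was 0.11, 0.27 and 0.42 on the mutant-labelled arrays and -0.13, 0.38 and 0.21 on the wild type arrays. These within-array values overlap between the groups, so that no unequal shift of the 2 neighbours was visible beyond the replicate spread.

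CG10562, beyond CG10560, had a smaller difference. Signals of 8.08, 8.22 and 8.20 were measured on the mutant-labelled arrays, against 7.19, 7.60 and 7.58 on the wild type arrays. The difference was 0.71 (SE 0.12), a 1.64-fold higher signal. The groups did not overlap, and wild type replicate 1 was again the lowest, with a difference of 0.57 when it was left out. CG10562 minus CG10560 within an array lay between -1.61 and -1.50 on the mutant-labelled arrays and between -0.80 and -0.48 on the wild type arrays, so the 2 neighbours shifted by unequal amounts.

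CG10559, on the other side of CG10553, hardly differed. It gave 6.65, 6.63 and 6.70 on the mutant-labelled arrays and 6.60, 6.53 and 6.53 on the wild type arrays. The mutant-labelled values were all above the wild type values, but by a gap of only 0.038, and the difference was 0.11 (SE 0.065). The probe set ranked close to the middle of every array, between percentiles 51.3 and 52.8 under the mutant label and between 50.5 and 50.9 in wild type. CG10553 minus CG10559 was 2.81, 2.88 and 2.68 on the mutant-labelled arrays and 1.21, 1.49 and 1.40 on the wild type arrays. That separation restates the difference of CG10553, for which the gene was picked, and is no further evidence. By its own small difference, CG10559, the gene just before CG10553, did not share the large one.

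CG10550 and CG10513, farther along 3R, had differences of moderate size on bright probe sets. CG10550 gave 9.98, 10.1 and 10.3 on the mutant-labelled arrays and 9.38, 9.36 and 9.25 on the wild type arrays, a difference of 0.79 (SE 0.096) or 1.73-fold. CG10513 gave 11.0, 10.8 and 11.2 on the mutant-labelled arrays and 10.3, 10.3 and 10.2 on the wild type arrays, a difference of 0.75 (SE 0.12) or 1.68-fold. Neither gene's groups overlapped, and in both the mutant-labelled arrays spread more than the wild type arrays. CG10513 had the highest rank of the 8 genes in both groups, above percentile 95.0 on every mutant-labelled array and above 92.5 on every wild type array. CG10550 was read by a probe set of the _s type, which can match transcripts of more than 1 gene.

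CG10514, the immediate neighbour of CG10513, was the exception to the direction. Its signals were 7.26, 7.73 and 7.99 on the mutant-labelled arrays and 7.67, 7.91 and 7.84 on the wild type arrays. The groups overlapped, and the difference of -0.15 (SE 0.18) was smaller than the SD of the mutant-labelled arrays (0.37). Its sign rested on mutant-labelled replicate 1, the lowest array, since the difference was 0.055 without it.

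Over the 8 genes the difference ranged from -0.15 to 2.79, with a median of 0.77, against a median of 0.022 over all genes. The groups did not overlap for 7 of the 8, all with higher values under the mutant label, where 14.5% of all genes had such higher values and 22.4% were free of overlap in either direction. In the fit over all probe sets 6 of the 8 were called with higher signal at an adjusted p under 0.05, where 2.65% of all genes were called higher, 1.44% lower and 4.09% in either direction. Nothing is read from these counts, since the genes were picked from this contrast. The count was 4 without mutant-labelled replicate 1 or without wild type replicate 2 or 3.

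By the gene order of Release 6, the 3R genes belong to an unbroken run of 26 protein-coding genes, all of which are on the family list used here. The run goes from CG11891 and CG11889 to CHKov1 and CHKov2, and 25 of its genes had a single-gene probe set. CHKov1, known for natural alleles linked to insecticide and virus resistance, and CHKov2 carry names for a choline kinase-like sequence. The members are scattered in it: CG10513 and CG10514 lie near one end, CG10550 and the block from CG10559 to CG10562 near the other. Of the 18 measured genes of the run outside the 8, 4 rose and 0 fell (22.2% called). Of all genes, 2.65% were called higher and 4.09% in either direction. The median difference of these 18 genes was 0.20, and 17 of the 18 differences were positive, where 56.7% of all genes had a positive difference. Whether probe sets of these related genes share signal was not tested, so the 18 values may not be separate.

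CG31288 had the largest rise among those 4. It gave 10.1, 10.2 and 10.3 on the mutant-labelled arrays and 9.33, 9.38 and 9.23 on the wild type arrays, a difference of 0.88 (SE 0.082, limma adjusted p = 2.46e-03). Smaller rises were those of CG31087 (0.46, adjusted p = 0.0183), CG31098 (0.46, adjusted p = 0.0214) and CHKov1 (0.35, adjusted p = 0.0380). The call of CG31288 held with every array left out in turn. Those of CG31087 and CG31098 were lost without wild type replicate 2 or 3 or mutant-labelled replicate 1 or 3 (adjusted p from 0.0639 to 0.0994), that of CG31087 also without mutant-labelled replicate 2 (0.0502), and that of CHKov1 without any one array (0.0622 to 0.170). A dimmer CHKov1 probe set differed by 0.37 without passing (adjusted p = 0.141). CHKov2, next to CHKov1, differed by 0.0052 (adjusted p = 0.994).

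**Figure D2:**
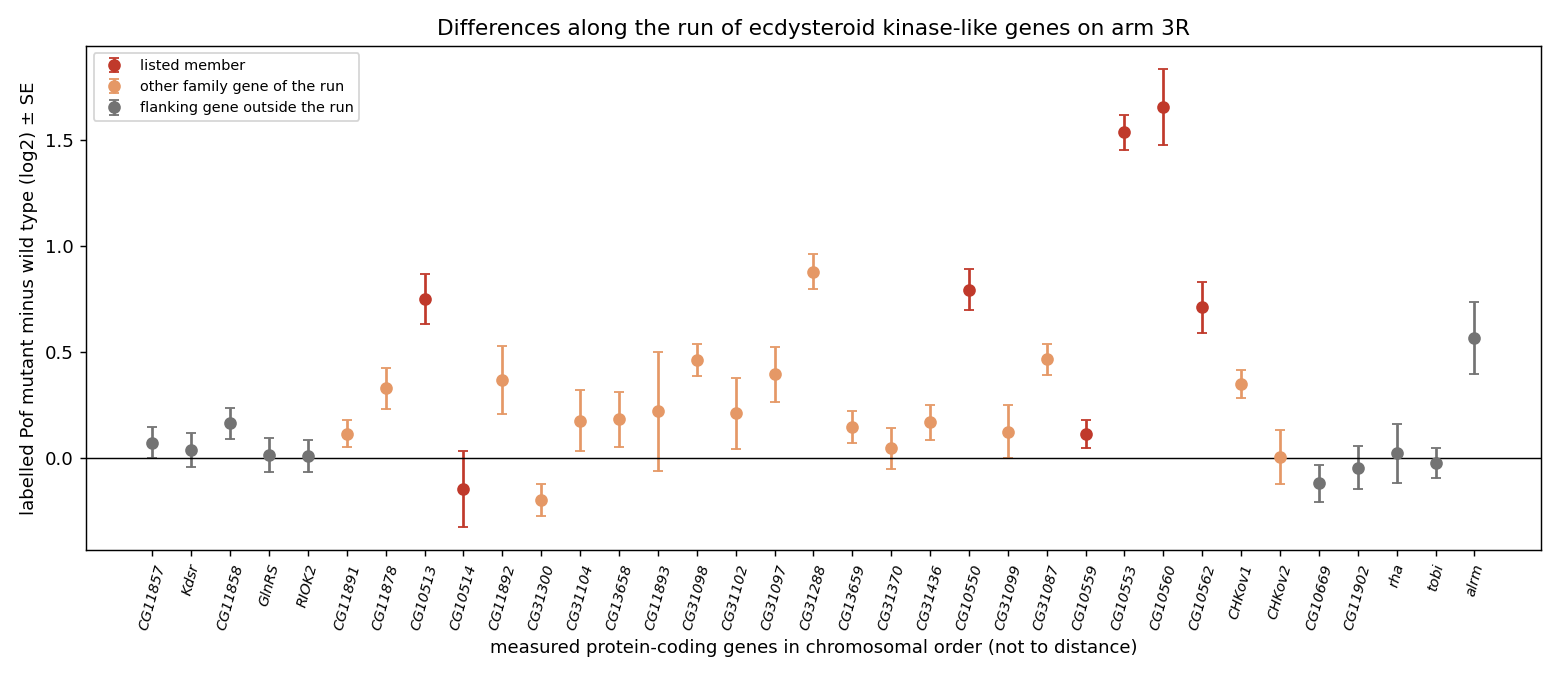
Difference of log2 signal, mutant-labelled minus wild type, with its SE (vertical axis) for the 25 measured family genes of the 3R run and 5 measured genes on each side, in chromosomal order without distances (horizontal axis). CG10553 and CG10560 stand at 1.54 and 1.65 beside CG10559 at 0.11, CG31288 at 0.88 has neighbours at lower values, and the genes just outside the run, RIOK2 and CG10669, lie at 0.0087 and -0.12.

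At the near end of the run, CG11878 (0.33, adjusted p = 0.166) and CG11891 (0.12, adjusted p = 0.515) did not pass. A probe set that names both CG11891 and CG11889 was higher by 0.57 (SE 0.11, adjusted p = 0.0351). The genes that border the run are of other kinds: RIOK2, which encodes an atypical kinase of ribosome assembly, differed by 0.0087 (adjusted p = 0.982) and CG10669 by -0.12 (adjusted p = 0.660). A wider window of 10 measured genes to either side of the run held 0 calls by limma among 20 genes (an unadjusted p under 0.05 for 1 higher and 0 lower), with a median difference of 0.029. Of all genes, 4.09% were called in either direction, so 0 calls among 20 genes do not set the window apart from all genes. That window of 10 genes was chosen after the values were seen.

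CG9259 lies apart from that run, near 3 further family genes on 2L, CG33509, CG33510 and CG33511, of which only CG33510 had a single-gene probe set. CG33510 gave 6.15, 6.09 and 5.86 on the mutant-labelled arrays and 6.49, 6.44 and 6.23 on the wild type arrays, a difference of -0.35 (SE 0.11, adjusted p = 0.179) in the direction opposite to CG9259. The nearest measured genes on that side, tadr, related to amino acid transporters, and CG9265, differed by 0.16 (adjusted p = 0.532) and -0.013 (adjusted p = 0.989). On the other side CG14397, CG34136 and the gene between them differed by -0.23, -0.0036 and 0.095 (adjusted p from 0.834 to 0.994). Limma called 0 of the 6 nearest measured genes (an unadjusted p under 0.05 for 0 higher and 1 lower, CG33510), and the large difference of CG9259 was not seen in them. With 4.09% of all genes called in either direction, 0 calls among 6 genes do not set these neighbours apart from all genes. Farther out, 2 of the 20 nearest genes rose, Itgbn, an integrin beta subunit gene, by 1.23 and RPA2, a subunit gene of replication protein A, by 0.49 (adjusted p = 5.33e-03 and 0.0228); both were named after their values were seen.

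Beyond the 8 genes, the family list held 43 further genes, written from general knowledge of the family, and 38 of them were measured. Of the 38, 7 rose, 2 fell and 29 did not pass, so 23.7% were called, against 4.09% of all genes. The list median was 0.16, against 0.022 over all genes. The groups did not overlap for 17 genes higher and 6 lower under the mutant label. Of all genes, 14.5% were free of overlap with higher values and 22.4% in either direction. Genes outside the 3R run moved both ways: of 20 measured, 3 rose, 2 fell and the median difference was 0.0030. The number of calls among all 38 was 4 without mutant-labelled replicate 1 or wild type replicate 2 or 3 and 5 without mutant-labelled replicate 3. It was 9 when wild type replicate 1 and mutant-labelled replicate 2 were left out together. The arrays were summed over whole larvae, so a change in the number of cells that express a gene and a change in RNA per cell cannot be told apart.

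**Figure D3:**
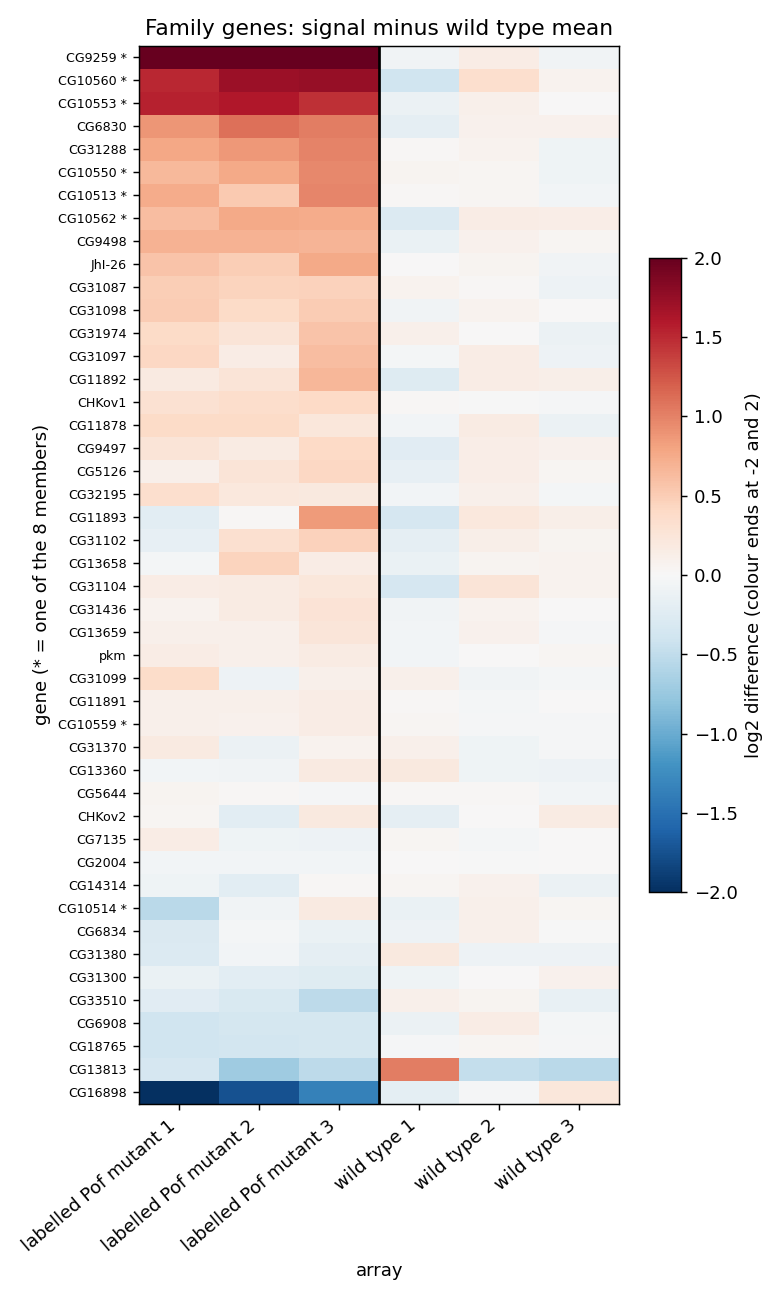
Log2 signal minus the gene's wild type mean, by colour, for the 46 measured family genes (rows, sorted by difference, the 8 described genes starred) on the 6 arrays (columns, mutant-labelled at the left). CG9259, CG10560 and CG10553 lead at the top on all 3 mutant-labelled arrays, CG16898 at the bottom is lower on all 3, and most of the rows between are pale.

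CG6830 had the largest rise of the family outside the 8 genes. It gave 10.1, 10.3 and 10.2 on the mutant-labelled arrays and 9.04, 9.30 and 9.30 on the wild type arrays, which is 2.0-fold higher (log2 difference 1.00, SE 0.10, adjusted p = 3.40e-03). CG9498 on 2L rose by 0.69 (adjusted p = 5.47e-03) and JhI-26, named as a gene induced by juvenile hormone, by 0.61 (adjusted p = 0.0137). The calls of CG6830 and CG9498 held without any single array, and that of JhI-26 was lost without mutant-labelled replicate 1 or wild type replicate 2 or 3 (adjusted p from 0.0514 to 0.0755).

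CG16898 moved the other way and more strongly. Its signals were 7.56, 7.87 and 8.27 on the mutant-labelled arrays, against 9.42, 9.59 and 9.83 on the wild type arrays. It was 3.29-fold lower under the mutant label (log2 difference -1.72, SE 0.19, adjusted p = 4.43e-03), and the call held without any single array. CG18765, the remaining fall, had a difference of -0.37 (adjusted p = 0.0266), and its call was lost without any one array except wild type replicate 1 (adjusted p from 0.0678 to 0.140). Next in order of p were CG6908 at -0.37 (adjusted p = 0.0804) and CG31974 at 0.40 (adjusted p = 0.104), which did not pass.

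Calls in the family were counted by the brightness of the probe sets. Of the 26 measured family genes outside the 8 whose wild type mean lay above every array median, 8 were called, and of the 12 at or below it, 1 was called. Of all genes, 4.09% were called in either direction, and all genes were not counted by brightness here. The difference between the shares of the family was not tested, and no trait of the family is read from it. CG9259 was the only one of the 8 genes with a wild type mean below the lower quartiles of the arrays (5.11 to 5.24), where 5 of the 46 measured family genes lay in all.

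The genes whose pattern over the 6 arrays was most like that of CG9259, by Pearson r among 226 genes with at least 0.5 of its SD, were Pof (r = 0.999), CG42816 (r = 0.998) and the cytochrome P450 gene Cyp6a17 (r = 0.996). For CG10553, among 645 genes, they were the cytochrome P450 gene Cyp28d1 (r = 0.998), CG33307 (r = 0.997) and again Pof (r = 0.997). All of these separate the groups widely: CG42816 was higher by 1.65, Cyp6a17 by 5.92, Cyp28d1 by 1.19 and CG33307 by 1.04. The 6 arrays fall into 2 groups, and these correlations are a description only.

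Genes that make, break down, carry or read ecdysteroids did not pass, where 4.09% of all genes were called in either direction. Beside that share, 0 calls in lists of 5 to 13 measured genes do not set these lists apart from all genes. Synthesis genes had 0 higher and 0 lower by limma among 7 measured (an unadjusted p under 0.05 for 0), with a median difference of 0.033. Among them shd, which encodes the enzyme that turns ecdysone into 20-hydroxyecdysone, differed by 0.19 (adjusted p = 0.375), dib by 0.15, nvd by 0.073 and sro by -0.047 (adjusted p from 0.532 to 0.886). All 4 are enzyme genes of the synthesis pathway.

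Of 5 genes for ecdysteroid inactivation and transport, limma called 0 higher and 0 lower (an unadjusted p under 0.05 for 0), with a median difference of -0.074. The hormone importer gene Oatp74D differed by -0.26 (adjusted p = 0.399), the ecdysone oxidase gene Eo by 0.15 (adjusted p = 0.408) and Cyp18a1, a hydroxylase that inactivates the hormone, by -0.15 (adjusted p = 0.735). Epp, the counterpart of the silkworm phosphatase that removes the phosphate from ecdysteroids, gave 7.0, 7.12 and 6.81 on the mutant-labelled arrays and 6.92, 7.16 and 7.07 on the wild type arrays. Those values overlap, and the difference was -0.074 (SE 0.11, adjusted p = 0.856).

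Receptor and early response genes likewise had 0 calls in either direction by limma among 13 measured, with an unadjusted p under 0.05 for 1 higher and 2 lower, and a median difference of -0.086. ImpL2, which encodes an ecdysone-inducible insulin antagonist, differed by -0.41 (adjusted p = 0.0812) and the nuclear receptor gene Eip78C by -0.59 (adjusted p = 0.0850). MsrA, listed as Eip71CD, differed by 0.75 (adjusted p = 0.131) and ftz-f1, another nuclear receptor gene, by -0.72 (adjusted p = 0.375). MsrA passed without mutant-labelled replicate 3 (0.97, adjusted p = 0.0373). Eip78C passed after a further quantile normalization, with trended robust variances and with array weights (adjusted p from 0.0312 to 0.0497).

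Detoxification genes known to respond to foreign compounds differed often. Of 17 measured, 10 rose, 2 fell and 5 did not pass (70.6% called), where 4.09% of all genes were called in either direction. The median difference was 0.78, against 0.022 over all genes. Cyp28d1 rose by 1.19 (adjusted p = 5.18e-04), Cyp6w1 by 1.78 (adjusted p = 1.28e-03) and the glutathione S-transferase gene GstE3 by 0.90 (adjusted p = 2.46e-03). Cyp12d1-d fell by 4.18 (adjusted p = 2.21e-05), to a mean below every lower quartile. This list was written with earlier results of these arrays known, so its counts are no independent evidence of a direction.

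**Figure D4:**
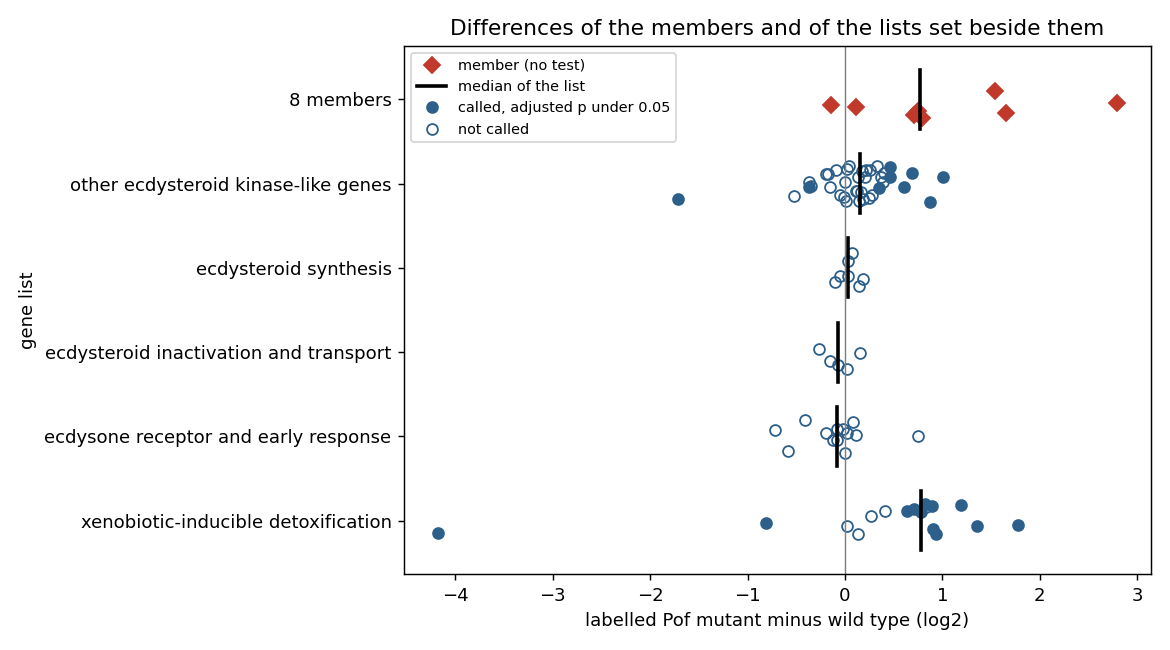
Difference of log2 signal, mutant-labelled minus wild type (horizontal axis), with 1 point per gene for the 8 genes and 5 gene lists (vertical axis). Filled circles passed an adjusted p under 0.05 and open circles did not. Diamonds are the 8 genes, drawn without a test result, and black lines are list medians. The median is 0.77 for the 8 genes, 0.16 for the other family genes and 0.78 for the detoxification list. The medians of the ecdysteroid lists lie between -0.086 and 0.033. The 8 genes were picked from this contrast or around a gene so picked, and the detoxification list was written with earlier results known. Nothing is read from the place of those 2 medians.

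Markers of some tissues moved with the groups. Of 8 measured midgut markers 5 rose and 2 fell, where 2.65% of all genes were called higher and 1.44% lower. The midgut list median per array was 12.1 to 12.5 on the mutant-labelled arrays and 11.7 to 11.9 on the wild type arrays. Cuticle and epidermis markers had 0 calls by limma among 6 measured, with an unadjusted p under 0.05 for 0 higher and 4 lower, and medians of 8.11 to 8.18 on the mutant-labelled arrays against 8.81 to 9.88 on the wild type arrays. Fat body markers had 0 calls by limma among 5 measured (an unadjusted p under 0.05 for 2 higher and 0 lower), with medians of 6.54 to 6.66 under the mutant label and 6.37 to 6.49 in wild type. Malpighian tubule markers had 0 rises and 1 fall among 5, with medians of 6.83 to 7.55 under the mutant label and 6.97 to 7.10 in wild type. The gene that fell, Ugt35C1, is also on the detoxification list and is counted among the falls there. The part of these shifts in the differences of the kinase-like genes was not tested. Without wild type replicate 1, the array with the highest cuticle values, CG9259 differed by 2.75 and CG10553 by 1.48, and without mutant-labelled replicate 2 they differed by 2.75 and 1.51.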

How the data were processed

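Biotin-labelled RNA of whole larvae was measured on Affymetrix arrays, per the labels' protocols. The authors deposited log2 signals per probe set from RMA, per the submitters' processing notes, and no version or setting is named there. RMA normally corrects background and quantile-normalizes arrays together, so a shift of most genes one way would be removed. The number of arrays limits the precision, and p-values measure the spread between these samples.

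Of 18952 probe sets, 183 controls were left out, and limma 3.58.1 under R 4.3.3 (lmFit, eBayes, 2 groups, no covariates) was run on the remaining 18769, with Benjamini-Hochberg adjustment over all of them. Where several probe sets named 1 gene alone, the one with the highest mean over the 6 arrays stood for it. Gene names came from the platform annotation, updated through the Release 6 plus ISO1 MT gene table, in which 13544 of 13647 probe sets with 1 gene were found; it served for names and gene order alone. The fit was checked on simulated arrays with independent noise, equal on all arrays. This check does not cover the unequal replicates seen here.

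The members, gene lists and alternatives were chosen with earlier results of these data known. Named genes were the 8 members, the called family genes and the 3 uncalled ones with the smallest p, up to 4 genes per pathway list by p, the 3 nearest measured genes on each side, the 3 most alike in pattern, and Pof. Alternatives were a filter to the upper 60% of probe sets, quantile and cyclic loess normalization, trended robust variances, array weights, a replicate block, each array left out, the mean over a gene's probe sets, and an adjusted p under 0.10; leaving out wild type replicate 1 with mutant-labelled replicate 2, and splitting the family by the 3R run, were added after the data were seen. Comparisons of protein sequences were planned and not made, as no sequences were used here.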

Additional observations from a re-analysis of the deposited data

How the results depend on the processing

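The differences of CG9259 and CG10553 moved by less than 1 SD of the replicates under every alternative run, and lay between 2.75 and 2.86 and between 1.48 and 1.59 with single arrays left out. With single arrays left out the number of the 8 genes called was 4 to 6, and that of the other family genes 4 to 8. That of the 3R run outside the 8 genes was 1 to 3, and that of family genes outside the run 3 to 5. That of receptor and early response genes was 0 to 1. The number of all genes called was 202 to 536, against 490 with all arrays. The highest of these, 536, came without wild type replicate 1. The cause of these changes was not tested. With array weights 840 genes were called in all. Receptor and early response genes had 1 call after quantile normalization, with trended robust variances, with array weights and with the replicate block, 2 at an adjusted p under 0.10 and 2 when wild type replicate 1 and mutant-labelled replicate 2 were left out together, against 0; leaving out those arrays gave 712 calls in all. Deviations of same-numbered arrays from their group means correlated at 0.18, 0.13 and 0.025, and those of arrays with different numbers at -0.19 to 0.15. With 3 arrays per group such values cannot tell whether the numbers pair the arrays. With the replicate block 6 other family genes were called instead of 9, 2 instead of 4 in the run, and 6 of the 8 genes. Defining the family by protein likeness was not run, as no protein sequences were used here. Values came without background measures, which limits what can be said of dim probe sets such as CG9259 in wild type.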

Other observations

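CG13813, a family gene known as Wallflower and chosen here after its values were seen, was apart on a single array. It gave 4.61, 4.24 and 4.43 on the mutant-labelled arrays and 5.97, 4.46 and 4.40 on the wild type arrays, with wild type replicate 1 as the high value. The synthesis gene spok also had its highest value on wild type replicate 1, with 4.76, 5.05 and 4.91 on the mutant-labelled arrays and 5.68, 4.79 and 4.56 on the wild type arrays. Of the other 38 family genes, 20 had their lowest wild type value on wild type replicate 1, and so did 4 of the 8 described genes.

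A probe set that names both CG31975, a family gene on 2L without a probe set of its own, and ovm was higher under the mutant label by 1.00 (7.96 ± 0.075 on the mutant-labelled arrays and 6.96 ± 0.14 on the wild type arrays, SD, n = 3 each, limma adjusted p = 2.42e-03). A dimmer probe set with the same names differed by 0.32 (adjusted p = 0.208). Which of the 2 genes gave the signal cannot be told from these probe sets.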
